A study of Oreolalax rhodostigmatus with 13 samples.

Results

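Among the unigenes of tadpole tissue, 135 stood lower in all 6 tadpoles after 4 h of light than in every dark control and every tadpole after 30 h of light. They were chosen from the measured values. A dip score was taken as the lowest of the 4 control and 3 long-term exposed values divided by the highest of the 6 short-term exposed values, and a unigene became a member where this score was above 1. Only unigenes above 0 in all 13 libraries with a mean of at least 1 FPKM (fragments per kilobase of transcript, scaled to the mapped fragments of the library) were scored. Of 249088 unigenes, 29348 met that requirement, and the 135 members were 0.46% of them. The limit of 150 members set in the rule was not reached, so every unigene with a score above 1 is included. The opposite order, with all 6 short-term exposed tadpoles above the other 7, was found in 120 unigenes (0.409% of the 29348). Since the low level at 4 h chose the members, it is described here with no test.

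The animals were 13 wild tadpoles of *O. rhodostigmatus*, the red-spotted toothed toad, caught at the same time in a dark cave pool at Gosner stage 25. Control tadpoles (n = 4) came from darkness and were killed at once, short-term exposed tadpoles (n = 6) spent 4 h in light, and long-term exposed tadpoles (n = 3) spent 30 h in light, with no other treatment. Each library is 1 tadpole, from which skin of the back, tail tissue, liver and both eyes went into a single RNA extraction. The exposed tadpoles were kept in a cage near the cave mouth, with a lamp at night. Capture was in the early morning, so only the long-term exposed tadpoles would have had lamp light. Light, its source, time of day and time in the cage therefore cannot be told apart in any comparison below.

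Tadpoles of this species are transparent in the dark and turn black-brown in light. Amphibian skin darkens when melanin granules spread inside melanocytes, which is quick, and when melanocytes multiply and make more melanin, which is slower and depends on transcription. A unigene is a transcript cluster of an assembly made without a genome, and it has a gene name only where its best protein match in another species is given.

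Summed FPKM of a library lay between 983190 and 1070969, and 91929 to 147363 unigenes were above 0. The spacing of the lowest values put the sequencing depth of the libraries at about 0.88 to 1.34 times that of control replicate 1, with the deepest library in the long-term exposed group. Short-term exposed replicate 5 stood apart: it had the fewest unigenes above 0 (91929), and its median over the 29348 unigenes was 2.24 FPKM, against 3.08 to 4.64 FPKM in the other libraries. The labelled tissues left their marks in the named unigenes. Summed FPKM of 8 liver cell unigenes was 854 to 2177 in control, 542 to 2493 in short-term exposed and 8129 to 12021 in long-term exposed tadpoles. Nearly all of it was albumin 1, at 852 to 2176, 538 to 2492 and 8060 to 11982 FPKM in the same order. The only named lens unigene, a crystallin, was at 0 to 1.04 FPKM in control, 0.66 to 2.15 FPKM in short-term exposed and 6.77 to 7.83 FPKM in long-term exposed tadpoles. Only 1575 of all unigenes had a name, in part because the study had picked them. This crystallin therefore does not measure the amount of eye tissue in a library. No marker of any list was a member, but few were scored, and members were only 0.46% of the scored unigenes, so this says little. The scored markers were 16 for growth signals, 4 each for liver cells, skeletal muscle, macrophages and lysosomes, and pteridine pigment cells. Melanocytes had 2, epidermis 1, and lens and clock and light response 0.

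The members were spread over all levels of expression. Their mean over the 13 libraries ran from 1.07 to 1206 FPKM, with a median of 4.59 FPKM, and the median of the 29348 scored unigenes was 4.11 FPKM. The median member was at 5.73, 4.49, 5.59 and 5.09 FPKM in the 4 control tadpoles. It was at 1.05 to 2.25 FPKM in the 6 short-term exposed tadpoles, with the lowest value in replicate 5 and the highest in replicate 2. In the 3 long-term exposed tadpoles it was at 6.38, 9.51 and 8.18 FPKM. The low place of the short-term exposed tadpoles follows from the rule, and the 3 long-term exposed tadpoles were above the 4 controls. The median scored unigene had no such pattern, at 3.08 to 4.64 FPKM in control, 2.24 to 4.55 FPKM in short-term exposed and 3.19 to 4.29 FPKM in long-term exposed tadpoles.

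**Figure D1:**
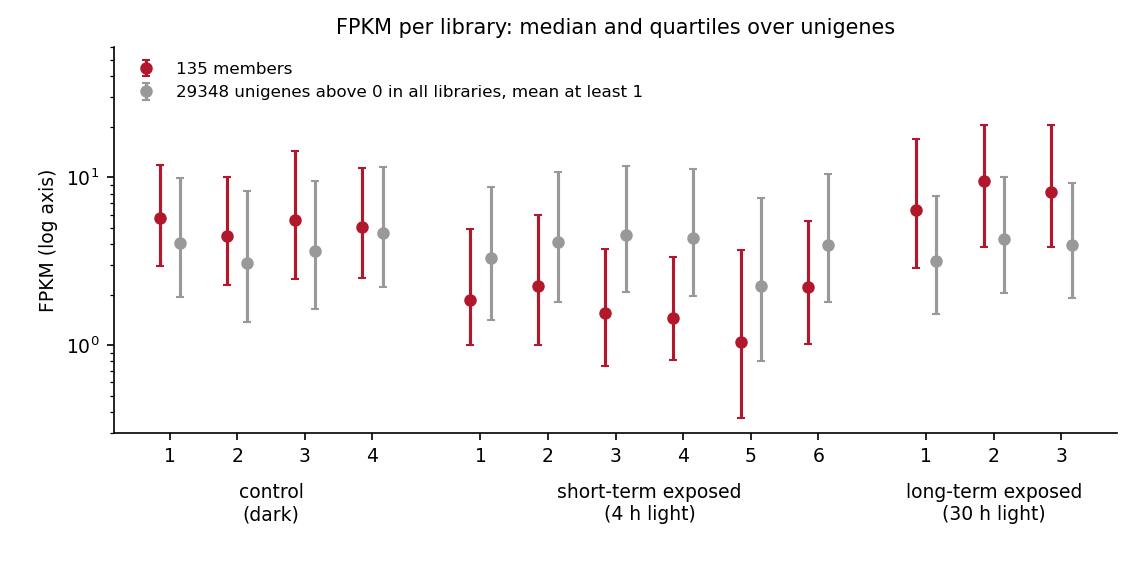
Median FPKM (points, log axis) and quartiles (bars) over the 135 members and over the 29348 scored unigenes in each of the 13 libraries, named by replicate number. The members sit at 1.05 to 2.25 FPKM in the short-term exposed libraries and at 4.49 FPKM or above in all the others, while the scored unigenes stay between 2.24 and 4.64 FPKM throughout.

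Most members passed the limit by a narrow margin. The score had a median of 1.16 and reached 3.88, but only 10 members were above 1.5, and 89 were above 1.1. Another 128 scored unigenes lay between 0.9 and 1, so the members are the upper end of a continuous run and not a separate set. The last member inside the limit had a score of 1.004, set by 5.63 FPKM in short-term exposed replicate 6 and 5.65 FPKM in control replicate 4. The first unigene outside had a score of 1, because short-term exposed replicate 3 and control replicate 3 both had 1.13 FPKM.

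The number of unigenes passing the rule depended on single libraries, and the membership depended on how the libraries were scaled. The lowest of the 7 values outside the short-term exposed group came from a control in 118 members (87.4%, against 54.1% of all scored unigenes), and from control replicate 2 alone in 44. The highest short-term exposed value came from replicate 2 in 39 members and from replicate 5 in 9. For single libraries, such shares over all scored unigenes were not counted, so these counts are not traits of the members. Control replicate 2 also had the lowest median of the 7 libraries over the scored unigenes, at 3.08 FPKM. Leaving out a library loosens the rule, and the number of unigenes with a score above 1 then became 353 without control replicate 2, 305, 211, 208 and 203 without short-term exposed replicates 2, 1, 4 and 3, and at most 198 without any other library. With replicate 1 of both exposed groups left out it was 255. The added unigenes are ones that the left-out library had kept out. All 135 members stayed in with any single library left out, except long-term exposed replicates 2 and 3, where 133 stayed. When the libraries were scaled by the median of ratios in place of FPKM alone, 188 unigenes had a score above 1, and 75 of the 135 members were among them. The scaling factors ran from 0.619 in short-term exposed replicate 5 to 1.32 in short-term exposed replicate 3.

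Group means of the members give the depth of the dip. The short-term exposed mean was 40.3% of the control mean for the median member, with quartiles of 29.3% and 49.5% and a range of 4.40% to 77.7%. It was under 50% in 103 members, under 25% in 20 and under 10% in 4. Against the long-term exposed mean, the short-term exposed mean was 26.2% for the median member (range 4.60% to 81.6%), under 25% in 64 members and under 10% in 13. The median climb after the dip was larger than the median dip, at 3.82-fold (long-term over short-term exposed) and 2.48-fold (control over short-term exposed).

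The 6 short-term exposed tadpoles did not dip alike. As a share of the lowest of the other 7 libraries, the median member was at 33.1% in replicate 5, 48.2% in replicate 4, 50.3% in replicate 3, 62.2% in replicate 1, 67.2% in replicate 6 and 72.4% in replicate 2. Replicate 5 was below 50% of that lowest value in 93 members and below 25% in 53, while replicate 2 was below 50% in 31 and below 25% in 9. Replicate 5 was the lowest of the 6 in 67 members (49.6%), and it was the lowest in 45.0% of all scored unigenes too. Replicate 3 was the lowest in 17.8% of the members, against 7.38% of the scored unigenes, replicate 4 in 19.3%, against 9.16%, and replicate 1 in 5.19%, against 25.2%. These shares are descriptions over unigenes of the same libraries, and no test was made of them.

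**Figure D2:**
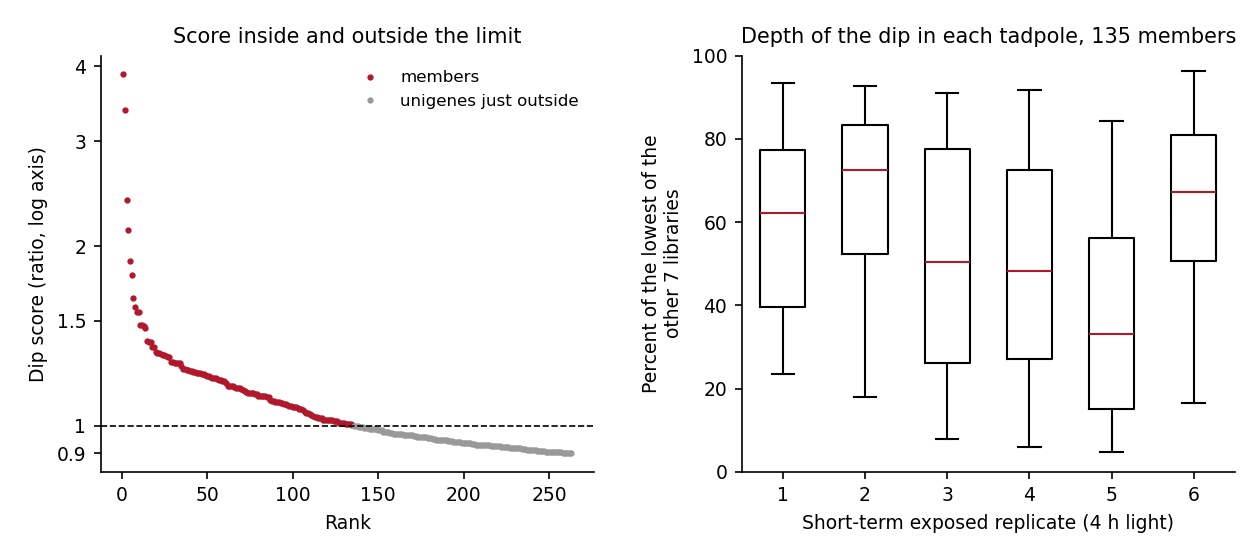
Left, dip score (log axis) by rank for the 135 members and for the 128 unigenes between 0.9 and 1, with the limit of 1 as a dashed line. Right, each short-term exposed value as a percent of the lowest control or long-term exposed value of the same member, by tadpole, with median, quartiles and whiskers at percentiles 5 and 95 over 135 members. The score runs through the limit without a gap, and the median share falls to 33.1% in replicate 5 and is 72.4% in replicate 2.

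Some members were lowest in short-term exposed replicates 3 and 4. This pair was picked after the values were seen, and other pairs were not counted. These 2 tadpoles were the lowest of the 6 in 23 members (17.0%, against 6.51% of the scored unigenes), with a median of 11.6% and 19.3% of the lowest other library, while the same members stayed at 64.5% to 78.2% in the other 4 tadpoles. Of the 20 members with a mean of at least 20 FPKM, 7 were among these 23 (35%, against 18.6% of the 4115 scored unigenes at that level). The member of score rank 107, an unnamed unigene, shows it. It had 124, 153, 169 and 105 FPKM in control tadpoles, 3.83 and 10.7 FPKM in short-term exposed replicates 3 and 4, 67.5 to 99.3 FPKM in the other 4 short-term exposed tadpoles, and 247, 112 and 187 FPKM in long-term exposed tadpoles. In the member of rank 42, which is also unnamed, replicate 4 had 0.49 FPKM and replicate 3 had 22.5 FPKM, against 54.7 to 79.9 FPKM in the other short-term exposed tadpoles and 98.8 to 113 FPKM in control tadpoles. Both were picked as examples after their values were seen.

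Short-term exposed replicates 3 and 4 were also the 2 lowest of the 6 in 3 of 4 scored unigenes on the list for pteridine pigment cells. They were so in 1 of 4 for macrophages and lysosomes, in 3 of 16 for growth signals, and in 0 of 4 for liver cells. For skeletal muscle it was 0 of 4, for melanocytes 0 of 2 and for epidermis 0 of 1. The lists were matched by protein name, and no unigene on them was shown here to be limited to a cell type. Dihydropteridine reductase, which recycles the cofactor tetrahydrobiopterin and is used with the pteridine pigments of amphibian skin, had 90.9 and 81.9 FPKM in short-term exposed replicates 3 and 4, against 290 to 582 FPKM in the other 4 and 322 to 653 FPKM in control tadpoles. A xanthine dehydrogenase/oxidase unigene, an enzyme of purine breakdown and pteridine metabolism, had 0.11 and 0.23 FPKM in these 2 tadpoles, against 1.39 to 4.55 FPKM in the other 4 and 2.93 to 6.51 FPKM in control tadpoles. The second xanthine dehydrogenase/oxidase unigene had 0.25 and 1.46 FPKM, against 3.72 to 7.73 FPKM in the other 4. Sepiapterin reductase, a late enzyme of tetrahydrobiopterin synthesis, did not follow, with 22.7 and 17.3 FPKM, against 15.9 to 43.8 FPKM in the other 4. Albumin 1, the main plasma protein made by liver cells, had 538 and 596 FPKM in replicates 3 and 4, 561 FPKM in replicate 1 and 1175 to 2492 FPKM in the other 3. Over the 6 short-term exposed libraries, 36 members (26.7%) had a Pearson r above 0.5 with dihydropteridine reductase, against 10.5% of the scored unigenes, and 22 members (16.3%) with albumin, against 10.4%. The median r over the members was -0.10 with dihydropteridine reductase and -0.20 with albumin, against -0.39 and -0.33 over the scored unigenes. The median member thus did not follow either of them. These r use the short-term exposed values that also chose the members, and dihydropteridine reductase was itself low in replicates 3 and 4. With 6 libraries they are descriptions only. In tissue put together before extraction, fewer cells of a type and less RNA per cell cannot be told apart, and the part of tissue makeup in the dip was not tested.

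Some other members had similar values in all 6 short-term exposed tadpoles. The unigene of rank 118, picked for its narrow spread after its values were seen, had 329, 311, 344 and 348 FPKM in control tadpoles, 221 to 285 FPKM in short-term exposed tadpoles and 291, 325 and 335 FPKM in long-term exposed tadpoles. Its dip was shallow, since 285 FPKM is just under 291 FPKM. Over the members, the median SD of log2(FPKM + 0.1) was 0.36 among control, 0.74 among short-term exposed and 0.41 among long-term exposed tadpoles, and over the scored unigenes 0.52, 0.81 and 0.44. A single low control or long-term exposed value, or a single high short-term exposed value, removes a unigene. The rule itself can therefore bear on these spreads, and its part in them was not tested.

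**Figure D3:**
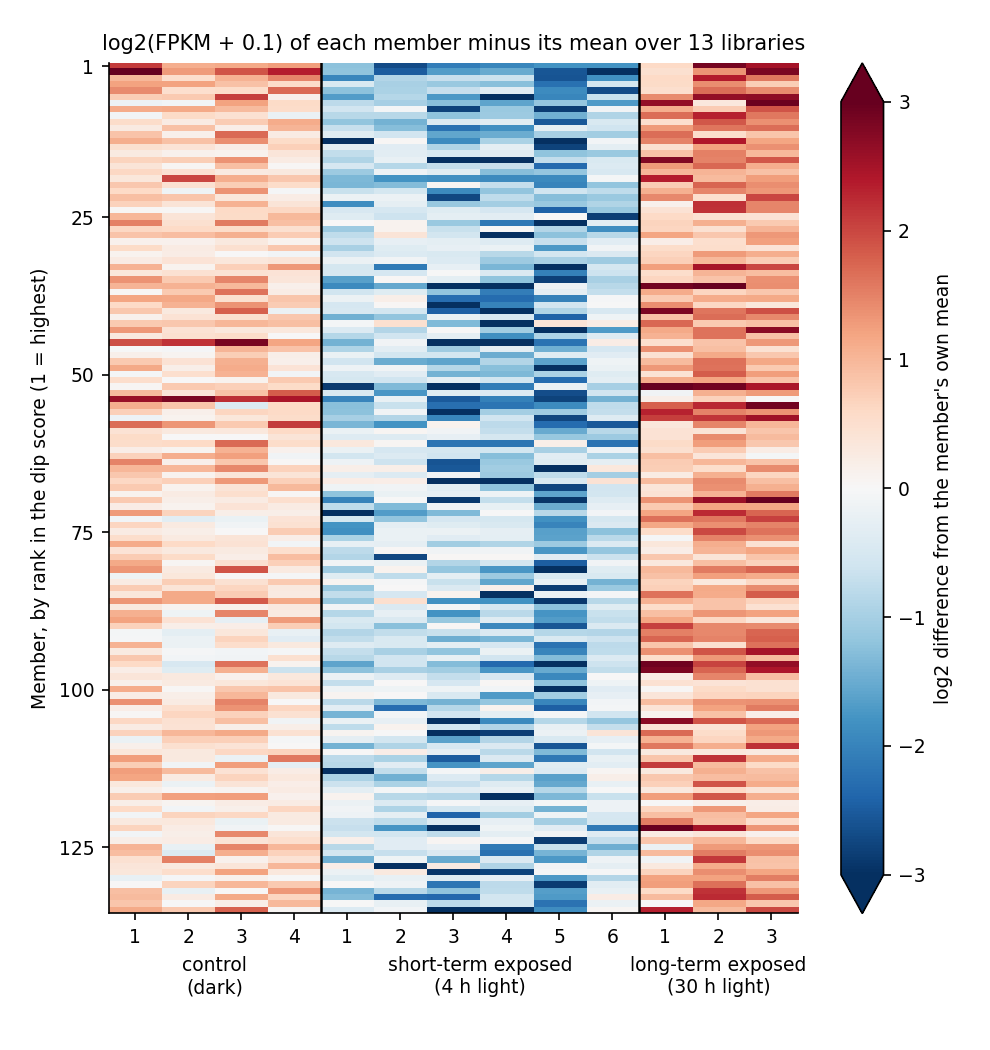
Each row is a member in order of dip score and each column a library, and the colour is log2(FPKM + 0.1) minus the member's own mean over the 13 libraries (blue below, red above, colours end at 3). The blue columns are the 6 short-term exposed tadpoles, with replicate 5 and, in many rows, replicates 3 and 4 darkest, and the long-term exposed columns are the reddest.

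The unigene with the highest score (3.88, unnamed) had 9.23, 4.60, 4.73 and 5.09 FPKM in control tadpoles, 0.24 to 0.83 FPKM with a median of 0.495 FPKM in short-term exposed tadpoles, and 3.22, 16.1 and 12.4 FPKM in long-term exposed tadpoles. All 6 short-term exposed values were thus under 1 FPKM, which holds for 14 of the 135 members. The control mean was 11.8-fold and the long-term exposed mean 21.0-fold that of short-term exposed tadpoles. The second highest score (3.39, unnamed) went with 27.3, 8.03, 12.5 and 17.1 FPKM in control tadpoles, 0.15 to 1.37 FPKM with a median of 0.725 FPKM in short-term exposed tadpoles, and 4.64, 8.52 and 23.8 FPKM in long-term exposed tadpoles. Its control mean was 21.5-fold that of short-term exposed tadpoles, and its long-term exposed values spread over the range of the controls.

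The most abundant member (rank 123, unnamed) had 1052, 1247, 3007 and 1439 FPKM in control tadpoles, 658 to 1030 FPKM with a median of 806 FPKM in short-term exposed tadpoles, and 1316, 1424 and 1223 FPKM in long-term exposed tadpoles. It passed the limit with a score of 1.02, since short-term exposed replicate 5, with 1030 FPKM, stood just under control replicate 1, with 1052 FPKM.

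Of the 135 members, 2 carried a protein name in the study's tables, and 207 of the 29348 scored unigenes did, so the functions of nearly all members are not known here. Few unigenes of the study's own lists were scored, so these lists can say little about the members. The light-inducible list was also picked by the study for a rise with light in these libraries, which leaves little room for a unigene lowest at 4 h. Of 1662 light-inducible unigenes 127 were scored and 0 were members, of 145 growth factor unigenes 18 were scored and 0 were members, and of 23 pigment unigenes 8 were scored and 0 were members. No MITF unigene was scored. The list of 1410 unigenes that the study used for a correlation analysis had 94 scored and 1 member, an unnamed unigene of rank 94. A list of 150 growth signal unigenes (growth factors, their receptors and receptor tyrosine kinases) had 16 scored and 0 members. All 135 bore the prefix of 1 large assembly cluster, which also holds 99.0% of the scored unigenes, so the prefix does not set the members apart. Whether members share sequence was not examined.

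The first named member was ephrin-A3 precursor (Cluster-29057.52979, best match in *Xenopus tropicalis*, rank 7, score 1.63). Ephrin-A ligands sit on the cell surface by a lipid anchor and bind Eph receptor tyrosine kinases of neighbouring cells, and in vertebrates they guide axons, for instance those of the retina, and keep cell populations apart. Ephrin-A3 had 1.52, 1.60, 4.02 and 2.54 FPKM in control tadpoles, 0.45 to 0.93 FPKM with a median of 0.675 FPKM in short-term exposed tadpoles, and 11.0, 2.14 and 13.7 FPKM in long-term exposed tadpoles. Long-term exposed replicates 1 and 3 stood above every control, and replicate 2 lay within their range. The control mean was 3.60-fold and the long-term exposed mean 13.3-fold that of short-term exposed tadpoles. Between long-term exposed (8.95 ± 6.05 FPKM, SD, n = 3) and control tadpoles (2.42 ± 1.16 FPKM, SD, n = 4) the log2 difference was 1.58 with a standard error of 0.63, and it did not pass (limma over 147192 tested unigenes, Benjamini-Hochberg adjusted p = 0.310, exact two-sided permutation p = 0.171, smallest possible 0.0571). Of the Eph receptors, type-B receptors 2 and 6 carried a name in the tables, with no type-A receptor among them. Neither was above 0 in all libraries, and which receptors ephrin-A3 binds in these tadpoles was not examined.

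Polycomb complex protein BMI-1 (Cluster-29057.137312, best match in the bird *Manacus vitellinus*, rank 59, score 1.19) was the other. BMI-1 is a subunit of Polycomb repressive complex 1, which marks histone H2A with ubiquitin and keeps genes silent, and in mice it is needed for the renewal of stem cells. It had 2.98, 2.67, 2.71 and 3.35 FPKM in control tadpoles, 0.69 to 2.25 FPKM with a median of 1.59 FPKM in short-term exposed tadpoles, and 2.96, 2.87 and 3.97 FPKM in long-term exposed tadpoles. Control and long-term exposed values overlapped. The log2 difference between long-term exposed (3.27 ± 0.61 FPKM, SD, n = 3) and control tadpoles (2.93 ± 0.31 FPKM, SD, n = 4) was 0.14 with a standard error of 0.48 (limma, adjusted p = 0.943, exact permutation p = 0.457). The short-term exposed mean was 52.9% of the control mean. The tables name 2 more unigenes BMI-1, both with best matches in chicken, which were at 0 in several control and short-term exposed libraries and never above 0.42 FPKM, too low to be scored.

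**Figure D4:**
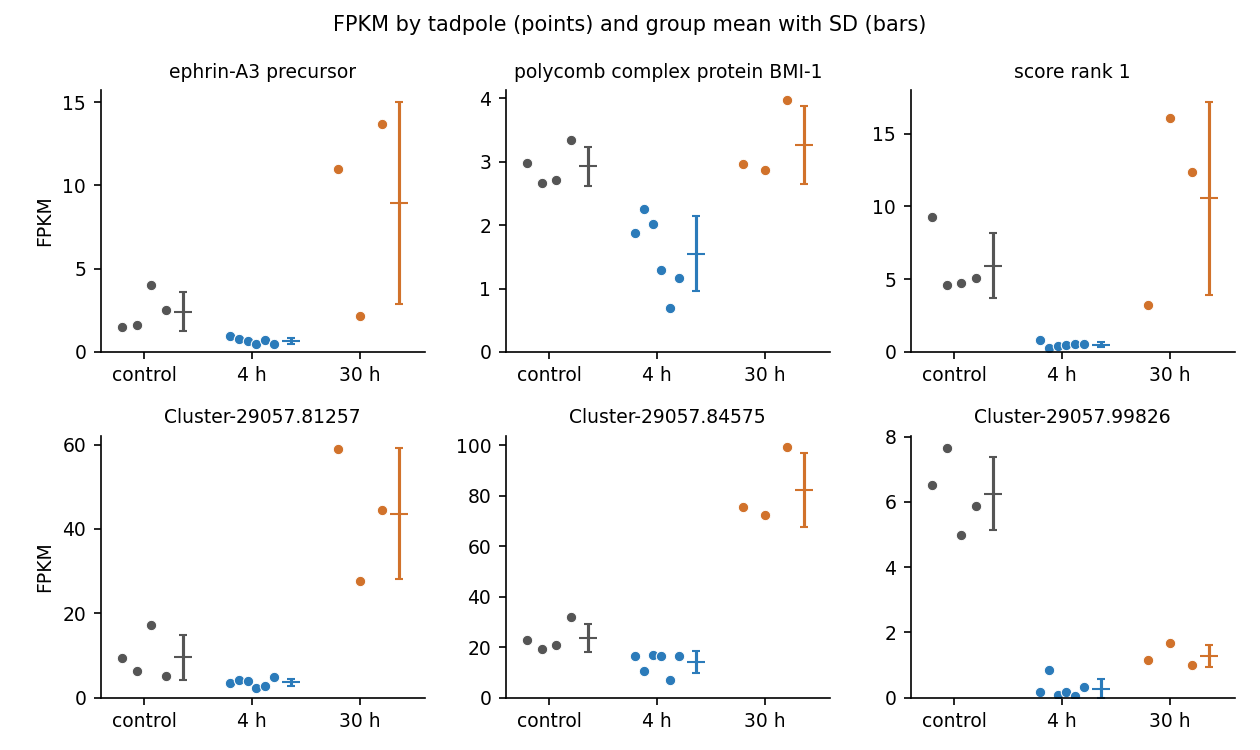
FPKM of 6 members by tadpole (points) with group mean and SD (bars) for control (n = 4), 4 h (n = 6) and 30 h of light (n = 3). In each panel the 4 h points lie below all others by the rule, and the 30 h points lie above all control points in Cluster-29057.81257 and Cluster-29057.84575, below them in Cluster-29057.99826, and they overlap with the control range in the other 3.

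The rule asks nothing about the order of long-term exposed and control tadpoles, but it used the values of both. A member needed every long-term exposed and control value above its short-term exposed values, and the scored unigenes met no such condition. The shares and calls in this contrast thus come from unigenes chosen with the same libraries. They describe the members and test nothing about them as a set. The fitted log2 difference, long-term exposed minus control, was above 0 in 115 of 135 members (85.2%), against 48.4% of the scored unigenes. Its median was 0.55 over the members, with quartiles of 0.16 and 0.92, against -0.03 over the scored unigenes, 0.20 over all 147192 tested and 0.06 over the 120 unigenes of the opposite order. Leaving out any control or long-term exposed library, with the members kept as chosen, left their median between 0.43 and 0.66. Leaving out a short-term exposed library cannot change it. In group means, 32 members (23.7%) were at least 2-fold higher in long-term exposed than in control tadpoles, against 10.2% of the scored unigenes, and 2 members were at 0.5-fold or less.

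In 39 members (28.9%) every long-term exposed tadpole was above every control, which 9.63% of the scored unigenes and 7.71% of all tested unigenes showed. The difference in means ran from 1.11-fold to 5.46-fold in these 39, with a median of 2.22-fold. In 2 members (1.48%) every long-term exposed tadpole was below every control, which 14.7% of the scored and 5.16% of all tested unigenes showed. The other 94 members overlapped between the groups. Of the 20 members with a mean of at least 20 FPKM, 9 (45%) were among the 39, where 8.51% of the 4115 scored unigenes at that level had this order.

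**Figure D5:**
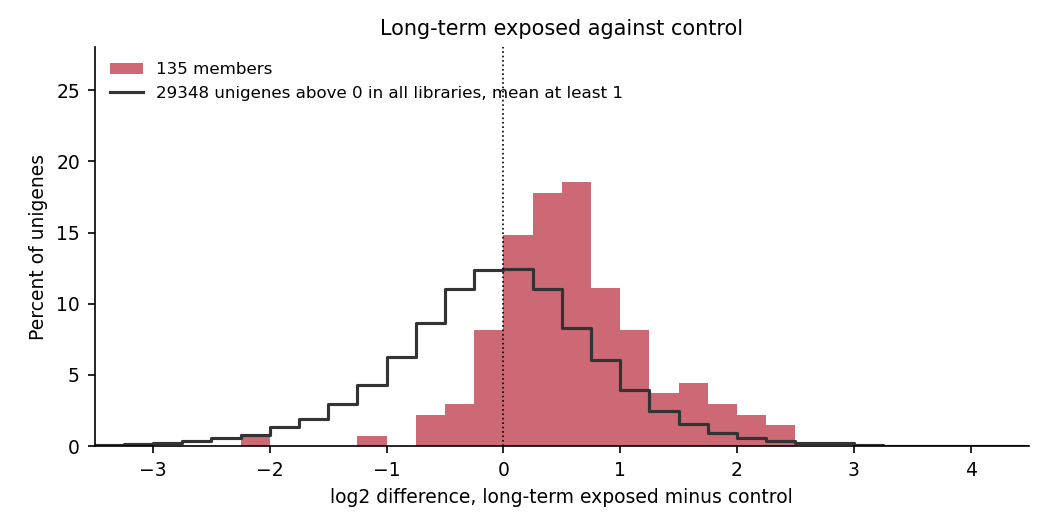
Distribution of the fitted log2 difference between long-term exposed and control tadpoles, in steps of 0.25, over the 135 members (filled) and the 29348 scored unigenes (line), each as percent of its set. The members centre at 0.55 and the scored unigenes at -0.03.

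By the adjusted p of limma, 4 members were higher in long-term exposed than in control tadpoles (2.96%), where 0.405% of the scored and 0.975% of all tested unigenes were. No member was lower, where 1.21% of the scored and 0.399% of all tested unigenes were. At an unadjusted p under 0.05, 22 members were higher (16.3%, against 5.11% of the scored unigenes) and 1 was lower (0.741%, against 9.99%). The 4 calls depended on the libraries. Without long-term exposed replicate 1, 2 or 3, 0 members passed, and without control replicate 1, 2 or 4, 1 of the 4 passed and no other member did. Without control replicate 3, 3 members passed, 2 of them among the 4. All 4 passed without any of the short-term exposed replicates, where 4 to 6 members passed in all.

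Among the members called higher, Cluster-29057.81257 (unnamed, rank 97) had 58.9, 27.6 and 44.4 FPKM in long-term exposed tadpoles, against 9.40, 6.31, 17.1 and 5.22 FPKM in control tadpoles, and 2.36 to 4.82 FPKM with a median of 3.68 FPKM in short-term exposed tadpoles. The lowest long-term exposed value was above the highest control. The log2 difference was 2.27 with a standard error of 0.47 (limma, adjusted p = 0.0241, exact permutation p = 0.0571). Cluster-29057.84575 (unnamed, rank 73) had 75.6, 72.3 and 99.3 FPKM in long-term exposed tadpoles, against 22.7, 19.2, 21.0 and 31.8 FPKM in control tadpoles, and 6.78 to 16.9 FPKM with a median of 16.5 FPKM in short-term exposed tadpoles. Its log2 difference was 1.81 with a standard error of 0.38 (limma, adjusted p = 0.0294).

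The other 2 called members are unnamed as well. The member of rank 9 had 45.4, 69.9 and 42.2 FPKM in long-term exposed tadpoles, against 13.3, 21.0, 19.4 and 12.3 FPKM in control tadpoles, and 5.12 to 7.93 FPKM in short-term exposed tadpoles (log2 difference 1.66, limma adjusted p = 0.0308). The member of rank 91 had 23.9, 22.8 and 27.9 FPKM in long-term exposed tadpoles, against 7.87, 6.68, 10.5 and 7.05 FPKM in control tadpoles, and 4.43 to 6.09 FPKM in short-term exposed tadpoles (log2 difference 1.64, limma adjusted p = 0.0275). Both had no overlap between the groups, and in all 4 called members the dip was shallow beside the later level, with a short-term exposed mean of 37.6% to 61.2% of the control mean and a long-term exposed mean of 3.10-fold to 4.59-fold the control mean.

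Downward, no member passed, and the 2 with the most negative difference are given by size alone. Cluster-29057.99826 (unnamed, rank 54) had 1.15, 1.67 and 1.01 FPKM in long-term exposed tadpoles, against 6.53, 7.65, 4.97 and 5.87 FPKM in control tadpoles, and 0.06 to 0.84 FPKM with a median of 0.175 FPKM in short-term exposed tadpoles. It was the deepest dip of all, with a control mean 22.7-fold that of short-term exposed tadpoles, and its long-term exposed mean was 0.204-fold the control mean. The log2 difference between long-term exposed and control tadpoles was -2.22 with a standard error of 0.62 (limma, adjusted p = 0.111). It passed with a pseudocount of 1 (adjusted p = 0.00512) and in a fit of the 7 libraries alone (adjusted p = 0.0179). Cluster-29057.101368 (unnamed, rank 45) had 4.24, 5.41 and 7.42 FPKM in long-term exposed tadpoles, against 11.6, 13.7, 21.7 and 6.79 FPKM in control tadpoles, and 0.14 to 3.46 FPKM with a median of 0.80 FPKM in short-term exposed tadpoles. Its groups overlapped (log2 difference -1.15, limma adjusted p = 0.661). The second member with every long-term exposed tadpole below every control had rank 86 and 8.08, 7.07 and 6.23 FPKM in long-term exposed tadpoles, against 9.94, 8.62, 14.3 and 8.62 FPKM in control tadpoles.

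Lists of marker unigenes were read in the same contrast. Of 6 tested liver cell unigenes, 5 passed as higher in long-term exposed than in control tadpoles, and their summed FPKM is given above. The only named lens unigene passed as higher too, with its FPKM also given above. Macrophage and lysosome unigenes summed to 540 to 817 FPKM in long-term exposed tadpoles, against 224 to 274 FPKM in control tadpoles, with 4 of 8 tested called higher. Melanocyte unigenes summed to 18.7 to 37.7 FPKM, against 2.19 to 10.3 FPKM in control tadpoles, with 0 of 7 called. Skeletal muscle unigenes summed to 25.9 to 49.7 FPKM, against 14.1 to 26.8 FPKM, with 0 of 7 called, and epidermis unigenes to 19.0 to 45.7 FPKM, against 11.0 to 36.5 FPKM, with 2 of 5 called. Pteridine pigment cell unigenes summed to 298 to 320 FPKM, against 382 to 747 FPKM, with 0 of 7 called. Most of that sum was dihydropteridine reductase, at 253 to 294 FPKM, against 322 to 653 FPKM in control tadpoles. Sepiapterin reductase was lower as well (6.2 to 10.9 FPKM, against 16.4 to 33.4 FPKM), and the scored xanthine dehydrogenase/oxidase unigenes overlapped with control. Clock and light response unigenes, a list of cryptochrome, period and heat shock names, summed to 1.07 to 21.9 FPKM, against 0 to 0.19 FPKM, with 1 of 2 called. Of the growth signal unigenes, 63 of 140 tested were higher and 0 lower. Of all tested unigenes 0.975% were higher and 0.399% lower, but this share is no fair background for the lists. Names came in part from the study's figure tables, which include unigenes that it listed for rising with light in these same libraries. High counts in this paragraph can therefore follow from which unigenes carry a name. In the short-term exposed group no unigene of any of these lists passed as higher or lower than control, and the lists' summed levels there overlapped with control in each. The share of all tested unigenes that passed in that contrast is not given here. The lack of calls therefore does not show that the lists were unchanged at 4 h. Their part in the members' difference was not tested.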

How the data were processed

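RNA from 13 single tadpoles was sequenced on an Illumina platform. Reads were checked with FastQC, assembled with Trinity, and the authors deposited FPKM for 249088 unigenes, rounded to 2 decimals and scaled by them to library size and unigene length. For alignment and counting, a tool was not given in the sources used here. Since FPKM keeps no read counts, no counting interval can be given, and an exact 0 may be a failed estimate. Groups and replicate numbers came from the labels, and all 13 columns were assigned by name. Names are best protein matches in the study's figure tables and the part held of its annotation tables, where 1575 unigenes have one. The figure tables hold unigenes that the study picked, among them its light-inducible list.

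The members and the lists were chosen with earlier results of these data known. The rule was applied to FPKM as deposited. Tests used log2(FPKM + 0.1) of the 147192 unigenes that reached 0.3 FPKM in 3 or more libraries, fitted by group over all 13 libraries with limma 3.58.1 (R 4.3.3, mean-variance trend) with Benjamini-Hochberg adjustment over all of them. Contrasts with the short-term exposed group, which the rule used, are given for the members with no test. Differences are on that scale, which understates changes of low unigenes. Exact two-sided permutation tests used SciPy 1.17.1, and figures used matplotlib 3.10.9. Relative depth is the most frequent ratio of low values of control replicate 1 to those of the library. The code was tested on simulated data.

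The text names every member with a protein name, the 2 highest scores, the unigenes on both sides of the limit, the most abundant member, the 2 largest positive and negative differences between long-term exposed and control, all 4 called members, and 4 members by rank picked after their values were seen. Marker lists (liver cells, lens, skeletal muscle, epidermis, macrophages and lysosomes, melanocytes, pteridine pigment cells, clock and light response, growth signals) were matched by protein name. The clock and light response list took cryptochrome, period and heat shock names, so it is not limited to clock genes. Alternatives were other pseudocounts (0.01 and 1), filters (none, or 1 FPKM in 3 libraries), median-of-ratios scaling, array weights, a block for the replicate number, a fit of the 7 compared libraries alone, other mean limits for the rule, and each library left out. No sequence was used.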

Additional observations from a re-analysis of the deposited data

Results flagged for a closer look

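In groups of 4 to 6 tadpoles, 26 sets of values were looked at for a value far from the rest (the members given in full and the median member, in control and short-term exposed tadpoles). Of these, 2 had one, and about 1 in 20 would by chance. The unigene with the highest dip score had 9.23 FPKM in control replicate 1, far above the other 3 controls. Cluster-29057.99826 had 0.84 FPKM in short-term exposed replicate 2, far above the other 5 short-term exposed tadpoles.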

How the results depend on the processing

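The number of unigenes with a dip score above 1 (135) was 62 with a mean of at least 5 FPKM, 216 without the requirement to be above 0 in every library, 141 to 353 when a library was left out, and 255 with replicate 1 of both exposed groups left out. Chosen after seeing the data, it was 522 without short-term exposed replicates 3 and 4 together, and 234 without short-term exposed replicate 5 and with median-of-ratios scaling, with 88 of the 135 members among them. The number of members higher in long-term exposed than in control tadpoles (4) was 9 with a pseudocount of 1, 7 with array weights, 7 in a fit of the 7 libraries alone, 0 to 6 when a library was left out, and 0 with replicate 1 of both exposed groups left out. The number lower (0) was 1 with a pseudocount of 1 and 1 in the fit of the 7 libraries, both times Cluster-29057.99826. The median difference of the members, kept as chosen, stayed between 0.43 and 0.66 in all 22 alternatives. It could not change with a short-term exposed library left out, with other filters or in the fit of the 7 libraries, which all gave 0.55. The median of all tested unigenes was 0.06 with a pseudocount of 1 and 0.35 with 0.01. With the replicate number as a block, 1 member was higher, 0 were lower and the median was 0.50. The numbers do not pair the tadpoles: same-numbered libraries of different groups had correlations of deviations from -0.11 to 0.02, and 0 of 13 libraries matched best with its own number. Short-term exposed replicates 5 and 6 had no same-numbered library in another group, so they could not match. The causes of these shifts were not tested. Groups of 3 and 4 tadpoles limit the exact test to 0.0571 at best, and without counts the error of low FPKM values is unknown.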
